A study of Homo sapiens with 6 samples.

Results

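The Notch pathway genes described here are 10 of the 27968 genes in the deposited tables, chosen by name: the receptors NOTCH1, NOTCH2 and NOTCH3, the ligands JAG1, JAG2 and DLL1, the DNA-binding factor RBPJ, and the target genes HES1, HES4 and HEY1. They were measured by RNA-seq in T47D, a human breast cancer line of luminal type that expresses the estrogen receptor. Cells received either an siRNA against HOTAIR-N, which the labels name but do not describe further and whose target gene HOTAIR yields a long noncoding RNA, or a control siRNA, and RNA was taken 48 hours later. All cells were this 1 line, kept in the same serum-containing medium and transfected with the same lipid reagent, with 3 libraries per group, each from its own transfection according to the series' design text. The comparison asks how the transcriptome differs after the HOTAIR-N siRNA. The sources used here name 1 siRNA per group, so an effect of lower HOTAIR and another effect of that siRNA cannot be told apart.

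Notch receptors are membrane proteins that bind DLL and JAG ligands on neighbouring cells. Binding leads to cleavage by ADAM proteases and then by gamma-secretase, and the freed intracellular domain enters the nucleus, where it joins RBPJ and a MAML coactivator on DNA. HES and HEY genes, which encode basic helix-loop-helix repressors, are the best-known targets. In the mammary gland, Notch signalling takes part in the choice of the luminal fate.

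HES1 and HES4, the targets that were higher with the HOTAIR-N siRNA, have a short sequence in common just upstream of their annotated starts, and their promoters are shown for that reason. The 300 bases run from 250 before the start to 50 after it, in the direction of the gene, and come from RefSeq (GRCh38.p14). Capitals mark TGGGAA, the core of the RBPJ recognition sequence. HES1 lies at chr3:194135898-194136197 on the plus strand and HES4 at chr1:1000048-1000347 on the minus strand.
HES1: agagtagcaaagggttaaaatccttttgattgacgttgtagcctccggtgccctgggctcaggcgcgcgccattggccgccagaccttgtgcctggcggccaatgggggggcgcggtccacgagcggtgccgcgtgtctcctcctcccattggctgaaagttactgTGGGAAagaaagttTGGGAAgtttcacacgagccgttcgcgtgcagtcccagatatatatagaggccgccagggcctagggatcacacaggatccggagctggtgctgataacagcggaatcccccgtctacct
HES4: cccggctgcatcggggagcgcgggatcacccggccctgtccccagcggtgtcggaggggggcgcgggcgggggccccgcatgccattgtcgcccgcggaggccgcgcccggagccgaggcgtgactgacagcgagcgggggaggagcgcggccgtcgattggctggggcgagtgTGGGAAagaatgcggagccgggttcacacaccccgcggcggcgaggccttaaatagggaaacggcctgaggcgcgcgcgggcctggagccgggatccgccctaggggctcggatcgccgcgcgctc

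In the HES1 window, TGGGAA begins 84 and 70 bases before the start. The HES4 window holds it once, 76 bases before the start. On either strand, TGGGAA occurs in 24.03% of the 35116 RefSeq promoters of this length and at least 2 times in 3.8% of them. The longest run that HES1 and HES4 have in common is TGTGGGAAAGAA, which 8 promoters in the table hold on either strand. It was found by comparing these promoters after their fold changes were known. Of the 10 genes, 8 have an entry in the promoter table, and besides HES1 and HES4 only RBPJ, at 1 of its 5 listed starts, holds TGGGAA. The N box CACNAG, a sequence that HES repressors bind, was matched 4 times on either strand in the HES1 window and not in that of HES4. It occurs in 38.03% of all promoters and at least 2 times in 8.94% of them. Of the 8 genes with an entry, 5 hold it, namely NOTCH1, NOTCH2, NOTCH3, RBPJ and HES1. These matches describe the letters in the windows and do not show that a factor was bound.

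The deposited expected counts summed to between 31777001 and 35259407 in the HOTAIR-N siRNA libraries and between 35106084 and 36707169 in the control siRNA libraries, so that 1 CPM (a share of the TMM-scaled library) stood for 32.9 to 36.4 counts in the HOTAIR-N siRNA libraries and 33.6 to 35.7 counts in the control libraries. HOTAIR itself was at 5.65 ± 0.0242 CPM with the HOTAIR-N siRNA and at 16.3 ± 0.301 CPM with the control siRNA (SD, n = 3 each), or 34.7% of control, though reads of HOXC11, which overlaps it on the opposite strand, could add to these values. ISG15, an interferon-induced gene, was at 131 ± 39.2 CPM with the HOTAIR-N siRNA and 16.5 ± 1.28 CPM with the control siRNA (SD, n = 3 each), and its part in the results was not tested. The 7 luminal epithelial markers summed to between 7998 and 8879 TPM with the HOTAIR-N siRNA and between 8754 and 9991 TPM with the control siRNA, with 4 of them called lower and 1 higher. KRT8, KRT18 and KRT19 made up most of these sums. Of the 4, ESR1, the estrogen receptor gene, fell most, to 32.1% of control (edgeR quasi-likelihood adjusted p = 1.9e-10). CDH1 was the marker called higher, at 1.86-fold (edgeR quasi-likelihood adjusted p = 1e-09). With the HOTAIR-N siRNA, the 5 fibroblast markers summed to between 7.69 and 8.97 TPM, the 4 leukocyte markers to between 3.71 and 4.76 TPM and the 4 endothelial markers to between 0.03 and 0.07 TPM. With the control siRNA, these sums were 8.86 to 10.1, 2.86 to 3.13 and 0.01 to 0.02 TPM, and each of these markers had a count in at least 1 library. Of the HOTAIR-N siRNA libraries, replicate 3 had the lowest level for 7 of the 10 Notch genes, and for 6 of the 10 the lowest control library was replicate 2. These libraries also stood apart from the others of their groups over all genes, in that their counts gave a chi-square of at least 6.99 per degree of freedom against the others, where the remaining pairs had 2.37 (HOTAIR-N siRNA) and 2.21 (control siRNA). Without both, the log2 fold changes were -0.62 for NOTCH1, -1.57 for NOTCH2, -0.31 for NOTCH3, -0.08 for JAG1, -1.12 for JAG2, 1.29 for DLL1, -0.81 for RBPJ, 0.73 for HES1, 0.75 for HES4 and -0.63 for HEY1. HEY1 was then no longer called (edgeR quasi-likelihood adjusted p = 0.2), and the calls of the other 9 did not change.

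With the HOTAIR-N siRNA all 3 receptors were lower, NOTCH2 by far the most, and so were the ligand JAG2 and RBPJ. The targets HES1 and HES4 and the ligand DLL1 were higher, HEY1 was lower and JAG1 was not called. HEY1 passed the filter on low counts only in the control libraries. Of the 10 genes, 3 were thus called higher and 6 lower in edgeR's quasi-likelihood test at an adjusted p under 0.05. The 6 include HEY1, which entered the test only through the group in which it was higher. With a filter of 1 CPM in at least 3 libraries, which HEY1 did not pass, 3 were called higher and 5 lower. Among all 14919 genes tested, 71.1% were called, 36.2% higher and 34.8% lower, so that being called does not set these genes apart from the rest. The balance of the 2 directions over all genes depends on the scaling, with 6480 higher and 4263 lower when library totals alone were used, in place of 5407 and 5198. The groups did not overlap for 9 of the 10 genes, HEY1 among them, against 73.4% of all genes tested. The median log2 fold change was -0.47 over the 10 genes, HEY1 included, and 0.02 over all genes tested. RNA came from whole cultures, so that a lower level in every cell and a loss from some of the cells cannot be told apart.

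**Figure D1:**
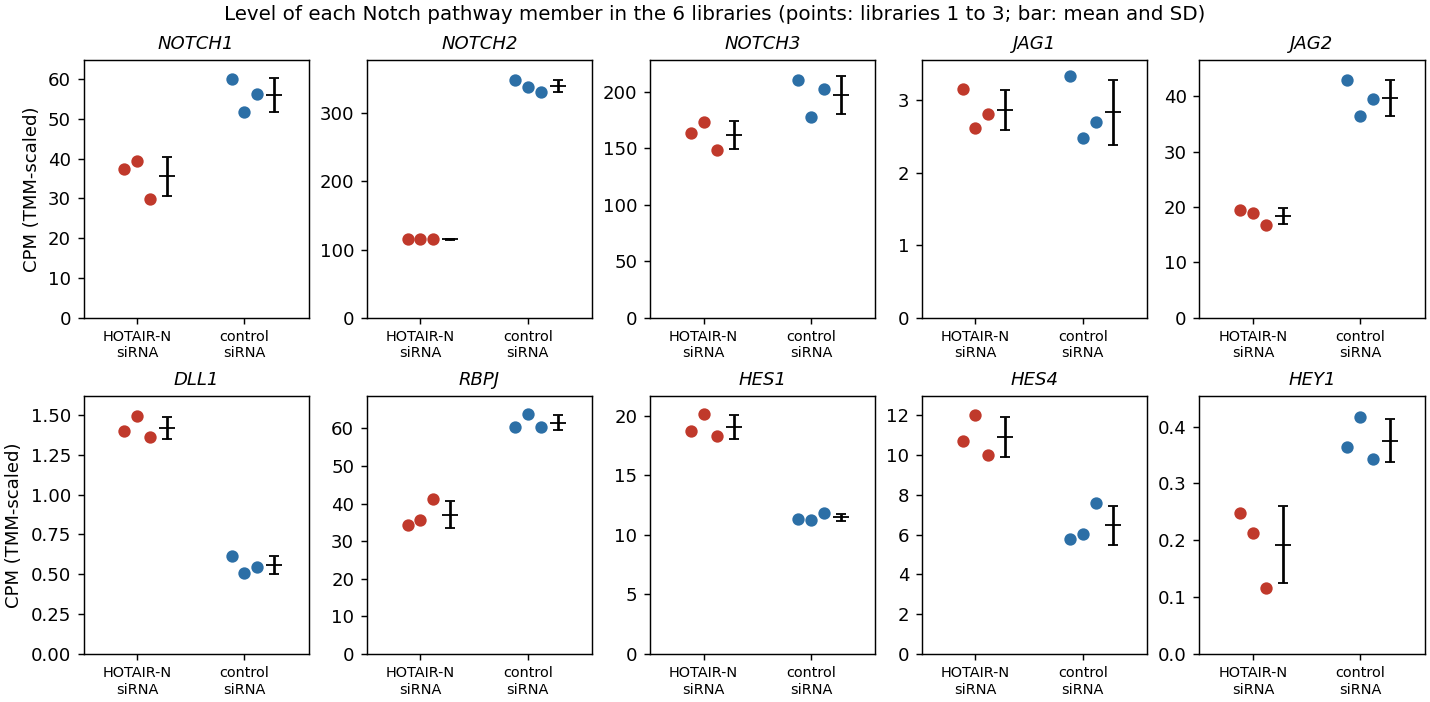
Level of each Notch pathway gene in TMM-scaled CPM on a linear axis from 0, with each library as a point (HOTAIR-N siRNA red, control siRNA blue) and the group mean with its SD as a bar. The groups overlap only for JAG1, and the separation is widest for NOTCH2, at 115 to 116 CPM with the HOTAIR-N siRNA and 331 to 348 CPM with the control siRNA.

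NOTCH2, on chromosome 1, had 115, 116 and 115 CPM in HOTAIR-N siRNA replicates 1, 2 and 3, against 348, 339 and 331 CPM in the same replicates of the control siRNA. The replicates of each group lay close together and the groups far apart. The level fell to 33.98% of control (log2 fold change -1.56 with an SE of 0.04, edgeR quasi-likelihood adjusted p = 4.8e-11). Among all genes tested, 93.6% had a smaller absolute log2 fold change, and NOTCH2 ranked at 25 by p. NOTCH2 shares its upstream exons with the NOTCH2NL genes, human-specific partial copies, and reads from these exons could be split between them. NOTCH2NL fell to 80.5% of control (log2 fold change -0.31 with an SE of 0.06, edgeR quasi-likelihood adjusted p = 0.00077). Summed over both genes, the level was 163 ± 3.25 CPM with the HOTAIR-N siRNA and 399 ± 10.8 CPM with the control siRNA (SD, n = 3 each), and these sums did not overlap between the groups.

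NOTCH1, on chromosome 9, had 37.3, 39.4 and 30.0 CPM with the HOTAIR-N siRNA, against 60.1, 51.7 and 56.4 CPM with the control siRNA. Each HOTAIR-N siRNA library was below each control library, with replicate 3 lowest, and the level fell to 63.4% of control (log2 fold change -0.66 with an SE of 0.09, edgeR quasi-likelihood adjusted p = 3.8e-05). NOTCH3, on chromosome 19, changed least among the receptors, with 164, 173 and 149 CPM after the HOTAIR-N siRNA and 210, 178 and 203 CPM after the control siRNA. The highest HOTAIR-N siRNA library nearly reached the lowest control library, replicate 2. NOTCH3 fell to 82.1% of control (log2 fold change -0.28 with an SE of 0.07, edgeR quasi-likelihood adjusted p = 0.0025), and a test against a 1.2-fold change did not call it (edgeR glmTreat adjusted p = 0.3). NOTCH4 was too low to be tested, at 38 counts over the HOTAIR-N siRNA libraries and 9 over the control libraries.

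On the length-corrected TPM scale, which allows levels to be compared between genes, the order of the receptors differed between the siRNAs. NOTCH3 was at 38.4 ± 2.83 TPM and NOTCH2 at 19.2 ± 0.18 TPM with the HOTAIR-N siRNA, while NOTCH3 was at 45.8 ± 4.07 TPM and NOTCH2 at 55.2 ± 1.76 TPM with the control siRNA (SD, n = 3 each). The ratio of NOTCH2 to NOTCH3 was 0.493, 0.473 and 0.540 in the HOTAIR-N siRNA libraries, against 1.16, 1.34 and 1.14 in the control libraries. NOTCH3 was thus the more abundant receptor mRNA in every HOTAIR-N siRNA library, and NOTCH2 in every control library. NOTCH2 made up 29.6 ± 1.62% of the summed receptor TPM with the HOTAIR-N siRNA and 49.2 ± 2.07% with the control siRNA, and NOTCH3 made up 58.9 ± 0.827% with the HOTAIR-N siRNA and 40.7 ± 1.81% with the control siRNA (SD, n = 3 each). NOTCH1 held 11.2 ± 0.909% with the HOTAIR-N siRNA and 10.01 ± 0.278% with the control siRNA (SD, n = 3 each, exact two-sided permutation p = 0.2). The summed receptor TPM was 65.1 ± 3.90 with the HOTAIR-N siRNA and 112 ± 5.80 with the control siRNA (SD, n = 3 each). For the ratio, for the shares of NOTCH2 and NOTCH3 and for the sum, the exact two-sided permutation p was 0.1, the smallest that 3 against 3 libraries allow.

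**Figure D2:**
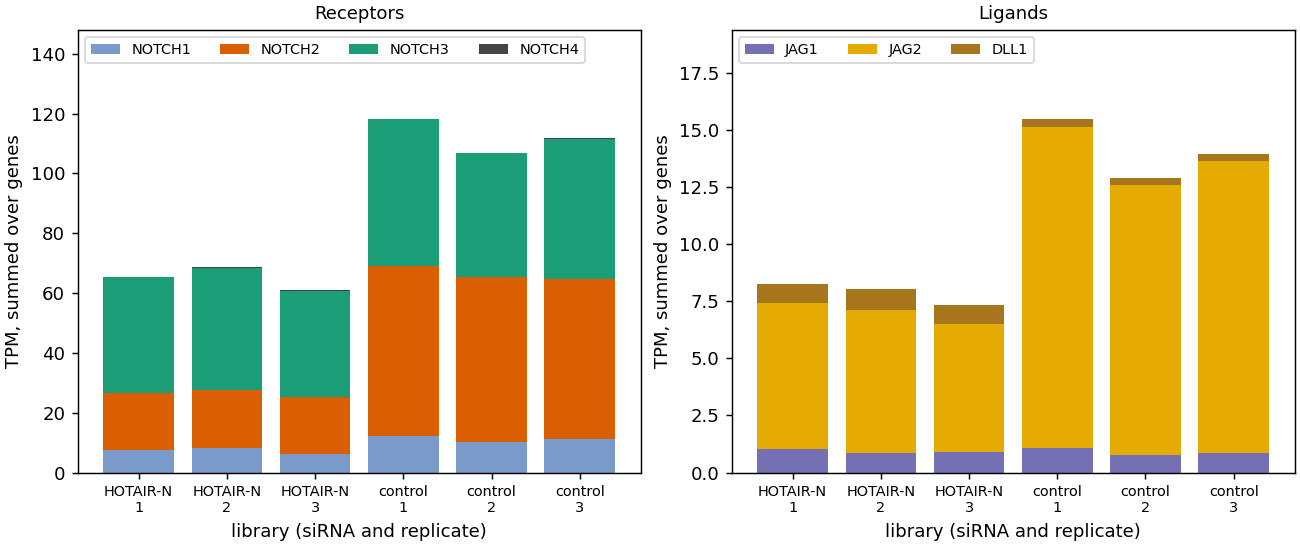
Stacked TPM of the receptors NOTCH1 to NOTCH4 (left) and of the ligands JAG1, JAG2 and DLL1 (right) in each library, HOTAIR-N siRNA replicates left of the control siRNA replicates. NOTCH2 is the largest receptor part in the control libraries and NOTCH3 in the HOTAIR-N siRNA libraries, and JAG2 makes up most of the ligand TPM in all 6.

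Among the ligands, JAG2, on chromosome 14, was the most abundant and was lower after the HOTAIR-N siRNA. Its level was 19.4, 18.9 and 16.8 CPM with the HOTAIR-N siRNA, against 43.0, 36.5 and 39.6 CPM with the control siRNA. Every HOTAIR-N siRNA library was below every control library, and JAG2 fell to 46.3% of control (log2 fold change -1.11 with an SE of 0.08, edgeR quasi-likelihood adjusted p = 7.7e-08). DLL1, on chromosome 6, went the other way from a low level, with 1.40, 1.49 and 1.36 CPM after the HOTAIR-N siRNA and 0.616, 0.506 and 0.544 CPM after the control siRNA. It rose 2.54-fold (log2 fold change 1.34 with an SE of 0.19, edgeR quasi-likelihood adjusted p = 4.4e-05), on 51, 49 and 47 counts with the HOTAIR-N siRNA against 22, 17 and 19 with the control siRNA. The annotated DLL1 gene overlaps FAM120B on the opposite strand in GENCODE release 29, with 0 exon bases in common, and FAM120B was at 62.1 ± 1.89 CPM with the HOTAIR-N siRNA and 73.4 ± 4.03 CPM with the control siRNA (SD, n = 3 each).

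JAG1, on chromosome 20, had 3.16, 2.62 and 2.81 CPM in the HOTAIR-N siRNA libraries and 3.33, 2.47 and 2.69 CPM in the control libraries. The groups overlapped, and the log2 fold change was 0.01, with a 95% interval of -0.30 to 0.33 (edgeR quasi-likelihood adjusted p = 0.93). JAG1 shares 79 exon bases with an antisense gene, AL050403.2, in GENCODE release 29, and without the strand setting of the counting their reads cannot be told apart. JAG2 made up most of the summed ligand TPM in every library. The sum was 7.87 ± 0.488 TPM with the HOTAIR-N siRNA and 14.1 ± 1.298 TPM with the control siRNA, and JAG2 made up 77.5 ± 1.048% of it with the HOTAIR-N siRNA and 91.4 ± 0.478% with the control siRNA (SD, n = 3 each). The exact two-sided permutation p was 0.1 for both, again the smallest that this design allows.

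RBPJ, on chromosome 4, encodes the factor through which all Notch receptors reach their targets and which represses the same genes, with corepressors, when no receptor is cleaved. It has processed pseudogenes in the human genome, between which and RBPJ reads could be split. Its level was 34.4, 35.5 and 41.2 CPM with the HOTAIR-N siRNA, against 60.5, 63.8 and 60.4 CPM with the control siRNA. RBPJ fell to 60.2% of control with no overlap between the groups (log2 fold change -0.73 with an SE of 0.07, edgeR quasi-likelihood adjusted p = 1.1e-06). RBPJ was the only 1 of the 10 genes for which HOTAIR-N siRNA replicate 3 was the highest library of its group.

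RBPJ has 4 annotated transcripts, of which 3 passed the filter and were tested. NM_015874 had 342, 267 and 218 counts with the HOTAIR-N siRNA, against 1104.5, 738 and 850 counts with the control siRNA. It fell to 31.0% of control (log2 fold change -1.69 with an SE of 0.20, edgeR quasi-likelihood adjusted p = 0.0019), in a test over 32285 transcripts of which 32% were called. NM_203284 had 866, 844 and 1168 counts with the HOTAIR-N siRNA and 794, 897 and 1189 counts with the control siRNA. The groups overlapped there and the log2 fold change was 0.02 with an SE of 0.20 (edgeR quasi-likelihood adjusted p = 0.97). NM_203284 thus held 68.4%, 71.7% and 81.8% of the RBPJ TPM in the HOTAIR-N siRNA libraries, against 36.1%, 41.0% and 55.6% in the control libraries. NM_005349 had 45.5 ± 11.1 counts with the HOTAIR-N siRNA and 84.6 ± 14.6 with the control siRNA (SD, n = 3 each) and was not called (log2 fold change -0.87, edgeR quasi-likelihood adjusted p = 0.081). NM_203283 was estimated at 0 in the 3 HOTAIR-N siRNA libraries and at 162, 420 and 0 counts in the control libraries, and did not pass the filter on low counts.

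The usage test, which asks whether the shares of a gene's transcripts differ, called RBPJ (edgeR diffSpliceDGE adjusted p = 0.019), as it did 6.42% of the 7465 genes with at least 2 tested transcripts. On simulated counts, the usage test called more unchanged genes than its threshold allows. A limma test of the log2 shares did not call RBPJ (adjusted p = 0.11). The call was also lost when control siRNA replicate 1 or 2 or any HOTAIR-N siRNA replicate was left out (edgeR adjusted p from 0.089 to 0.2), and was kept without control siRNA replicate 3 (edgeR adjusted p = 0.00032). These transcripts have most of their sequence in common and their counts are estimates, which varied between replicates, as the values of NM_203283 show. Of the other 9 genes, NOTCH2, JAG2 and HES4 had more than 1 tested transcript, and none was called (edgeR diffSpliceDGE adjusted p = 1 for each). NM_024408 held at least 98.92% of NOTCH2 TPM in every library.

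**Figure D3:**
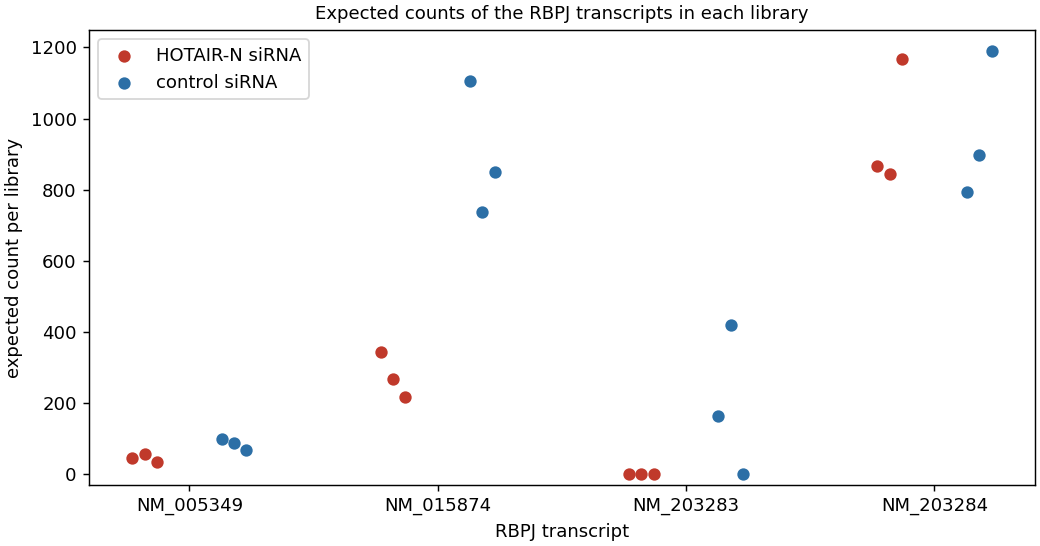
Expected count of each annotated RBPJ transcript in each library, HOTAIR-N siRNA (red) left of control siRNA (blue). The groups are apart for NM_015874, at 218 to 342 counts with the HOTAIR-N siRNA against 738 to 1104.5 with the control siRNA, and overlap for NM_203284.

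HES1, on chromosome 3, encodes a repressor that also binds its own promoter. It had 18.7, 20.2 and 18.3 CPM with the HOTAIR-N siRNA, against 11.3, 11.3 and 11.8 CPM with the control siRNA. The groups were well separated, and HES1 rose 1.66-fold (log2 fold change 0.73 with an SE of 0.07, edgeR quasi-likelihood adjusted p = 1e-06). HES4, its relative on chromosome 1 for which mice have no counterpart, had 10.7, 12.02 and 9.99 CPM with the HOTAIR-N siRNA, against 5.77, 6.02 and 7.59 CPM with the control siRNA. HES4 rose 1.69-fold without overlap (log2 fold change 0.75 with an SE of 0.11, edgeR quasi-likelihood adjusted p = 6.2e-05), control siRNA replicate 3 being the highest of its group. The size of these rises was not unusual here, as 74.5% of all genes tested had a smaller absolute log2 fold change than HES1 and 75.6% a smaller one than HES4.

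HEY1 was near the limit of detection, with 9, 7 and 4 counts with the HOTAIR-N siRNA, against 13, 14 and 12 counts with the control siRNA. It passed the filter on low counts in the 3 control libraries and in 0 of the HOTAIR-N siRNA libraries, so it entered the test only through the group in which it was higher, and its call is given as a value only. The log2 fold change was -0.95 with an SE of 0.35 (edgeR quasi-likelihood adjusted p = 0.028), and DESeq2 did not call it (adjusted p = 0.14). Each of the other 9 genes passed the filter in all 6 libraries.

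**Figure D4:**
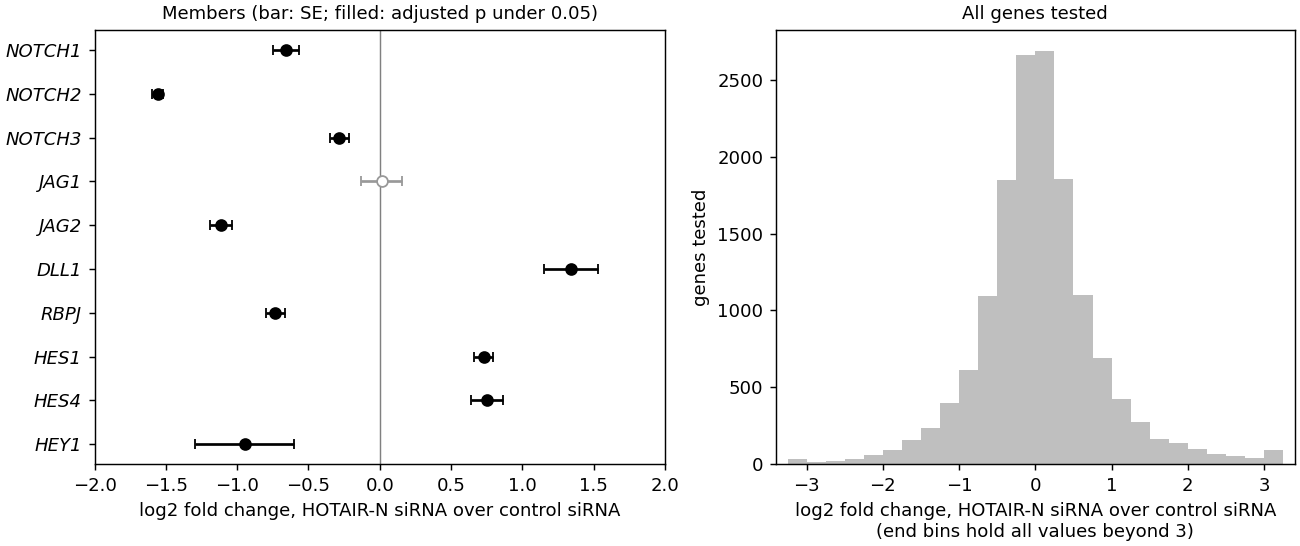
Left, log2 fold change of each Notch pathway gene, HOTAIR-N siRNA over control siRNA, with its SE as a bar and filled points for an adjusted p under 0.05. Right, the log2 fold changes of all 14919 genes tested in bins of 0.25, with a median of 0.02; the end bins hold all values beyond 3. NOTCH2 lies lowest at -1.56 and DLL1 highest at 1.34.

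In order of level, the HOTAIR-N siRNA libraries had NOTCH3 first at 38.4 TPM, followed by HES1 at 27.7, HES4 at 25.7, NOTCH2 at 19.2, RBPJ at 12.01, NOTCH1 at 7.29, JAG2 at 6.10, JAG1 at 0.92, DLL1 at 0.847 and HEY1 at 0.177 TPM (means, n = 3). In the control libraries the order was NOTCH2 at 55.2, NOTCH3 at 45.8, RBPJ at 19.8, HES1 at 16.3, HES4 at 14.9, JAG2 at 12.9, NOTCH1 at 11.3 and JAG1 at 0.893 TPM, with DLL1 and HEY1 both at 0.327 TPM (means, n = 3). Replicate values overlapped between HES1 and HES4, between NOTCH1 and JAG2 and between JAG1 and DLL1 with the HOTAIR-N siRNA. With the control siRNA they overlapped between HES1 and HES4, HES4 and JAG2, JAG2 and NOTCH1, and DLL1 and HEY1. The genes nearest to NOTCH2 by Pearson's r of log2 CPM over the 6 libraries, among 349 with a log2 fold change within 0.25 of it, were ARF3, FN1 and AUH, with r of 0.9998, 0.9998 and 0.9997. The 6 points form 2 groups, so that r mostly restates the shared direction.

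Of the other 15 genes of the receptor, ligand and HES or HEY families, 5 were expressed highly enough to be tested, of which 3 fell and the other 2 were not called in edgeR's quasi-likelihood test. Among all genes tested, 36.2% were called higher and 34.8% lower. Neither this list nor those below were tested against these shares. HEY2, a HEY family repressor, had 1.89, 1.92 and 2.52 CPM with the HOTAIR-N siRNA, against 9.75, 10.3 and 8.28 CPM with the control siRNA. It fell to 22.4% of control (log2 fold change -2.16 with an SE of 0.13, edgeR quasi-likelihood adjusted p = 2.6e-08), with no overlap between the groups. HES6, a family member that in mouse counteracts HES1, fell to 39.5% of control (log2 fold change -1.34 with an SE of 0.10, edgeR quasi-likelihood adjusted p = 1.8e-07). NOTCH2NL, above, was the remaining fall, and DLK2 and HES2 were not called (log2 fold change 0.44 and -0.06, edgeR quasi-likelihood adjusted p = 0.1 and 0.67). HES3 and DLL3 had 0 counts in all libraries, and HES5, HEYL, RBPJL and DLK1 had 0 counts over the HOTAIR-N siRNA libraries and at most 2 over those of the control siRNA. HES7 had 24 counts over the HOTAIR-N siRNA libraries and 2 over the control libraries. DLL4 had 32 and 17, and DNER 6 and 3. These genes and NOTCH4, above, were too low to be tested.

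Of 15 genes that modify or cleave the receptors, 3 rose, 6 fell and 6 were not called. POFUT1 and POGLUT1, which add the O-linked fucose and glucose that the receptors carry, fell to 59.9% and 55.8% of control (edgeR quasi-likelihood adjusted p = 7.6e-09 and 3.7e-07). EOGT, which adds N-acetylglucosamine to EGF repeats, rose 1.35-fold (edgeR quasi-likelihood adjusted p = 0.00012). APH1B, a gamma-secretase subunit, rose 2.73-fold to 23.8 ± 1.41 CPM with the HOTAIR-N siRNA, against 8.73 ± 0.646 CPM with the control siRNA (SD, n = 3 each, edgeR quasi-likelihood adjusted p = 7.1e-09).

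Of 14 genes of endocytosis and turnover, 6 rose, 5 fell and 3 were not called. NEURL1, among the 6, had 18, 17 and 18 counts with the HOTAIR-N siRNA and 9, 4 and 12 with the control siRNA. Its control counts lay around the minimum count of 10, so it owed its place in the test to the group in which it was higher. NUMB, an inhibitor that acts on receptor trafficking, fell to 25.2 ± 1.69 CPM with the HOTAIR-N siRNA, against 61.7 ± 0.352 CPM with the control siRNA (SD, n = 3 each), or 40.7% of control (edgeR quasi-likelihood adjusted p = 2e-09). FBXW7, the ubiquitin ligase subunit that marks the cleaved receptor for degradation, fell to 52.4% of control (edgeR quasi-likelihood adjusted p = 1.4e-07). MIB1, which ubiquitinates ligands for their uptake, rose 1.67-fold and DTX3, a Deltex family ligase, 1.83-fold (edgeR quasi-likelihood adjusted p = 2e-06 and 4e-07).

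Of 8 nuclear coactivators, 2 rose, 5 fell and 1 was not called, where 71.1% of all genes tested were called. MAML3 fell to 40.7% of control and MAML1 to 70.0% (edgeR quasi-likelihood adjusted p = 2.8e-07 and 6.4e-06), both encoding coactivators that bind the complex of RBPJ and the cleaved receptor. KAT2B, a histone acetyltransferase, fell to 62.0% and SNW1, a transcription and splicing cofactor, to 79.5% (edgeR quasi-likelihood adjusted p = 2.1e-06 and 9e-05). Of 15 tested nuclear corepressors, 4 rose, 8 fell and 3 were not called. CTBP2 fell to 49.4% of control and the deacetylase gene HDAC1 to 74.9% (edgeR quasi-likelihood adjusted p = 2.7e-09 and 1.7e-06). KDM5A, an H3K4 demethylase, rose 1.40-fold and RITA1, which exports RBPJ from the nucleus, 1.43-fold (edgeR quasi-likelihood adjusted p = 3e-06 and 4.2e-06).

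Of 7 tested genes reported as Notch targets in other settings, 3 rose, 3 fell and 1 was not called. SOX9, a transcription factor, fell to 32.8% of control and the cyclin gene CCND1 to 76.9% (edgeR quasi-likelihood adjusted p = 1.6e-09 and 3.4e-06). PLAU, the urokinase gene, rose 6.47-fold from a low level, at 2.94 ± 0.649 CPM with the HOTAIR-N siRNA and 0.448 ± 0.174 CPM with the control siRNA, and CDKN1A rose 2.07-fold (SD, n = 3 each, edgeR quasi-likelihood adjusted p = 1.5e-06 and 2.9e-08). NRARP, a feedback inhibitor of the Notch complex named after its values were seen, had 25.3 ± 0.904 CPM with the HOTAIR-N siRNA and 24.9 ± 1.19 CPM with the control siRNA (SD, n = 3 each), and was not called (edgeR quasi-likelihood adjusted p = 0.75). Over the 64 tested genes of these lists, 18 rose and 30 fell, against 36.2% higher and 34.8% lower among all genes with the same TMM scaling, and the median log2 fold change was -0.11. The 18 include NEURL1, which had few counts.

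**Figure D5:**
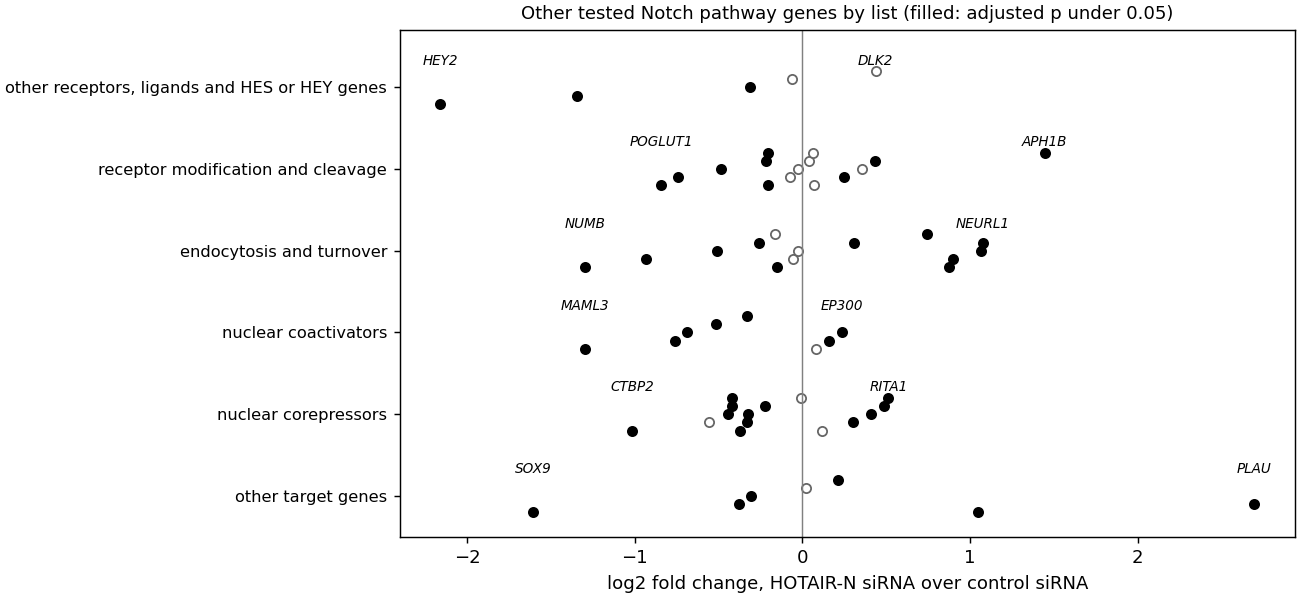
Log2 fold change (HOTAIR-N siRNA over control siRNA) of the other tested Notch pathway genes, 1 point per gene and 1 row per list, filled for an adjusted p under 0.05, with the lowest and highest gene of each list named above the row. Values run both ways in each list, from -2.16 for HEY2 to 2.69 for PLAU.

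The 7-mer GACCAAT was picked in earlier work on these data because genes with it in their 3′ UTR had low fold changes, which makes any link to lower levels partly a product of that choice. The longest GENCODE release 29 3′ UTR held it in 0 of the 10 Notch genes and in 6.34% of the 13254 tested genes with one. Among the other tested pathway genes, HES6, POGLUT1, NUMB, NCOR1 and CTBP2 held it, and each of these was called lower. Over the pathway lists 30 of 64 tested genes were called lower, and 34.8% of all genes tested. Among all tested genes with a 3′ UTR, the median log2 fold change was -0.33 with the 7-mer and 0.01 without it. Since the 7-mer was picked for low fold changes, the falls of its holders are no independent result. Whether the 7-mer had a part in the falls of the pathway genes named here was not tested.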

How the data were processed

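Total RNA of 6 T47D libraries was ribosomal RNA-depleted, and libraries were made with a stranded kit, per the labels' protocols. The submitters' processing notes list STAR 2.6.0c, RSEM 1.3.0 and the build hg19. Neither the protocols nor the notes say if reads were counted by strand. Per the file headers, the deposited tables hold RSEM expected counts and TPM per gene and transcript, and the share of each transcript as a percent of its gene was deposited with them. Replicates were grouped by title.

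Expected counts were rounded, filtered with filterByExpr (minimum count 10, total 15), scaled by TMM and tested with edgeR 4.0.16 (R 4.3.3) quasi-likelihood fits over all genes or transcripts, without covariates, with Benjamini-Hochberg adjustment. The SE is the log2 fold change divided by the square root of F, and intervals cover 95%. Transcript usage was tested with diffSpliceDGE and a Simes p. limma 3.58.1 and DESeq2 1.42.0 served as alternatives. Steps were tested on simulated counts, where the usage test called more unchanged genes than its threshold allows. The edgeR p-values set the difference between the groups against the spread between the 3 transfections of a group. That spread was estimated with information shared over all genes or transcripts.

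The 10 genes and the lists were chosen with earlier results of these data known. Beside the 10, the rule named HOTAIR, the 4 tested genes of smallest p in each pathway list, and the 3 genes most like the member of smallest p. Other genes were named after their values were seen: ISG15, HES2, NRARP, NEURL1, NCOR1, the luminal markers, the untested family members, and FAM120B for its overlap with DLL1. Files give no coordinates. Those printed are from RefSeq, GRCh38.p14.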

Additional observations from a re-analysis of the deposited data

How the results depend on the processing

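The calls of NOTCH1, NOTCH2, JAG2, DLL1, RBPJ, HES1 and HES4 were the same under all 17 alternatives, which covered scaling, tool, filter, the replicate block, a 1.2-fold null, a stricter threshold and left-out libraries. Library totals alone shifted the median of all genes by 0.10 on the log2 scale, with 60.3% of calls higher in place of 51.0%, and upper-quartile scaling gave 6009 higher and 4658 lower. These 7 calls did not change under either. NOTCH3 (log2 fold change -0.28) was not called against a 1.2-fold change (adjusted p = 0.3). HEY1 was not called by DESeq2 (log2 fold change -0.97), against a 1.2-fold change (-0.95, adjusted p = 0.057), at a threshold of 0.01 (-0.95) or when HOTAIR-N siRNA replicate 3 and control siRNA replicate 2 were both left out (-0.63), and could not be tested at 1 CPM. JAG1, not called in any, changed sign without a filter (-0.00474) and without those 2 libraries (-0.0757). Against a 1.2-fold change 6876 genes were called in place of 10605.

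With 1 library left out at a time, log2 fold changes ran from -1.18 to -0.70 for HEY1, whose call was lost without HOTAIR-N siRNA replicate 2 or 3 or control siRNA replicate 1 or 2, and from -0.0792 to 0.14 for JAG1. Same-numbered replicates of the groups did not deviate together (Pearson's r across 14919 genes of -0.04, -0.21 and -0.12). There was thus no sign that the numbers pair them. With 3 libraries per group, of which 1 in each stood apart from the others, these values cannot exclude such pairing. Across the groups, r was highest, at 0.22, between HOTAIR-N siRNA replicate 3 and control siRNA replicate 2, which both stood apart from their groups. What these libraries had in common was not tested. With the replicate block 10010 genes, 6219 transcripts and 276 genes by usage were called, in place of 10605, 10327 and 479, and none of the 10 calls changed. The limma test of shares called 1020 genes. HEY1 and the untested family members rest on few counts, so that small differences were not detectable at this depth.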
